A study of Mus musculus with 4 samples.

Results

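The chondrocyte genes described here are 10 cartilage regulators and matrix genes (Sox9, Sox5, Sox6, Acan, Comp, Matn1, Matn3, Hapln1, Cnmd and Ihh), collagens left aside, which were taken by gene symbol from the 56691 genes of the deposited table. All 10 were found, each on a single row. RNA-seq was performed on 4 spontaneous sarcomas from mice that carry p53R282W on one allele (W/+, named in the labels by the human residue), a germline change present in every cell of the mouse. The ATO group comprised 2 sarcomas (ATO 1 and ATO 2) from mice given arsenic trioxide in their drinking water over the long term. The paper describes treatment until natural death. Its methods also describe euthanasia of mice that were moribund or had a large or ulcerated tumor. The other 2 sarcomas (PBS 1 and PBS 2) came from mice labelled PBS, which the paper calls untreated. The ages at which the sarcomas were taken and the kind of each sarcoma are not stated in the labels. The paper names angiosarcomas, soft sarcomas and osteosarcomas among the tumors of these mice. It also reports longer survival of mice with sarcomas under arsenic trioxide. Treatment, age and kind of tumor therefore cannot be told apart here. The labels of all 4 samples also carry a growth protocol for cultured cells with agents that induce adipocytes, which goes against the label of tumor tissue, and whether it applies is not settled by the sources used here.

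Cartilage is built by chondrocytes, which secrete a matrix of type II collagen fibrils filled with the proteoglycan aggrecan. Sox9 is the transcription factor that specifies chondrocytes and switches on the genes of this matrix, and Sox5 and Sox6, a closely related pair, act beside it on the same genes. Aggrecan (Acan) binds hyaluronan, link protein (Hapln1) locks that bond, and matrilins (Matn1, Matn3) and Comp connect the fibrils. Chondromodulin (Cnmd) keeps vessels out of cartilage, and Indian hedgehog (Ihh) is the signal that maturing growth plate chondrocytes send to their neighbours. Several of the 10 are used outside cartilage too: Sox6 shapes fibre type in skeletal muscle, Comp is abundant in tendon, and Sox9 is active in many stem and progenitor cells.

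The total counts ranged from 15259695 to 18134000, so that 3 counts, the upper limit for a gene listed at 0, corresponded to a CPM, the count scaled to a fixed total, of 0.165 to 0.197, covering counting error only. ATO 2 had 14.7% of its counts in mitochondrial genes, against 1.98% to 2.59% elsewhere. Values are given as FPKM, which the authors divided by gene length and total count and which allows levels of different genes to be compared, and as CPM after TMM normalization, the scale of the test. ATO was compared with PBS by the quasi-likelihood test of edgeR over 17188 genes with Benjamini-Hochberg adjustment. Nothing states that each sarcoma came from a mouse of its own, so the p-values measure only the spread between these samples. With 2 against 2 an exact permutation test of a single value cannot go below 0.333.

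The chondrocyte genes were expressed at low levels in most sarcomas. Their FPKM summed to 7.06 in PBS 1, 7.55 in PBS 2, 34.9 in ATO 1 and 7.64 in ATO 2. By this sum ATO 1 stood apart, while the other ATO sarcoma lay close to both PBS sarcomas. The closeness did not hold gene by gene. In ATO 2 Sox9 was lower, and Comp and Sox6 were higher, than in either PBS sarcoma. An FPKM of at least 1 was reached by 5 of the 10 genes in ATO 1 and by 2 in each of the other sarcomas, where the median of all genes tested lay between 3.56 and 4.57. The leading gene differed as well. Sox9 gave 74.4% of the summed FPKM in PBS 1 and 58.7% in PBS 2, whereas Comp gave 63.5% in ATO 1 and 63.9% in ATO 2. Of the defining products of cartilage, Acan stayed at or below 1.07 FPKM everywhere. Type II collagen (Col2a1) reached 21.3 FPKM in ATO 1 but 0.03, 0.25 and 0.05 in PBS 1, PBS 2 and ATO 2. These 2 products were thus low in PBS 1, PBS 2 and ATO 2. Other cartilage genes had other orders, and Col11a1, for example, was highest in PBS 1 at 54.97 FPKM. Whether any of the 4 sarcomas was cartilage-like was not tested.

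**Figure D1:**
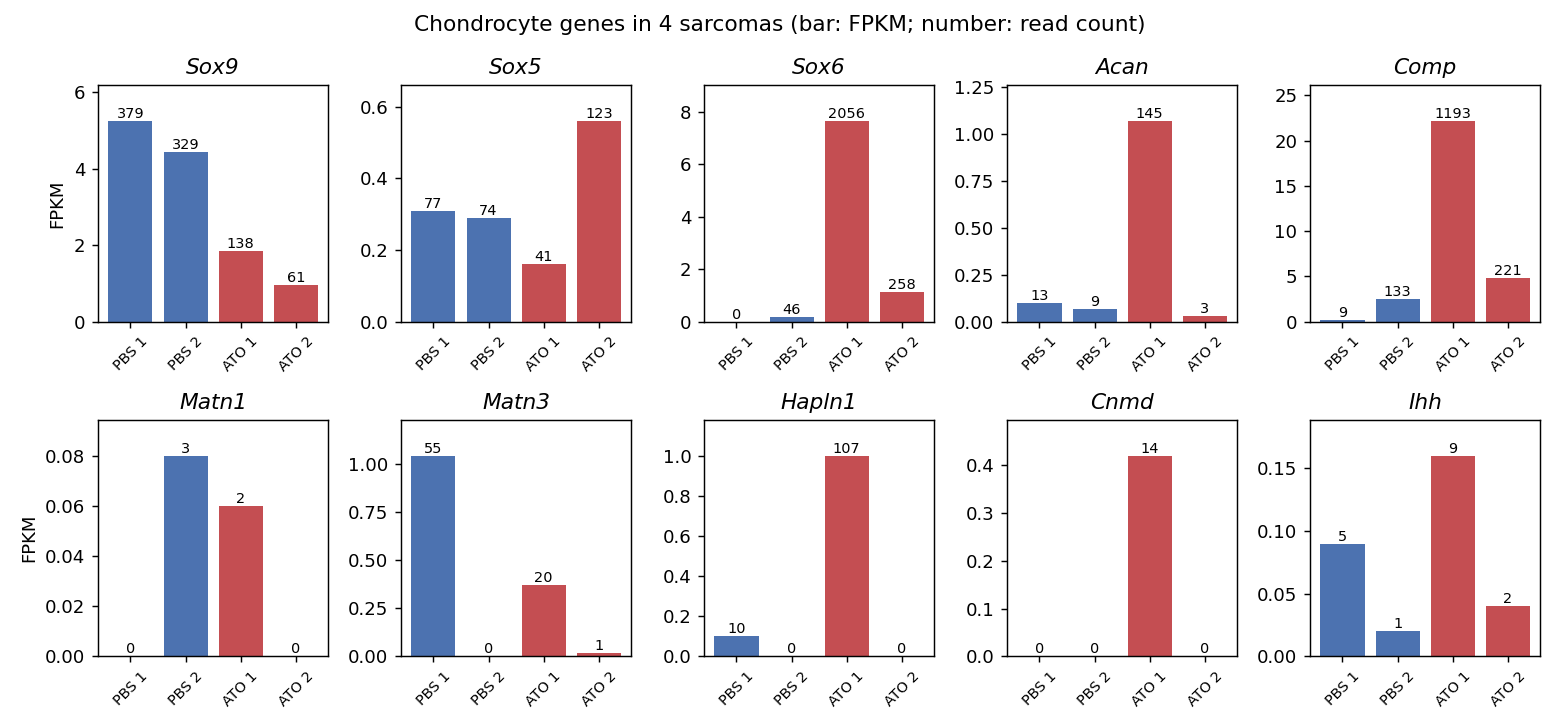
FPKM of each of the 10 chondrocyte genes in the 4 sarcomas (bars, blue for PBS and red for ATO, each panel with its own axis from 0), with the read count above each bar. Sox9 was highest in both PBS sarcomas, whereas Sox6, Comp, Acan, Hapln1 and Cnmd were highest in ATO 1.

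Sox9 (ENSMUSG00000000567; GRCm38 chromosome 11, 112782224 to 112787760, plus strand) had 379 counts in PBS 1, 329 in PBS 2, 138 in ATO 1 and 61 in ATO 2. On the FPKM scale these were 5.25 and 4.43 in PBS against 1.84 and 0.97 in ATO, so both PBS sarcomas lay above both ATO sarcomas, by CPM too. The mean was 4.84 ± 0.580 FPKM (SD, n = 2) in PBS and 1.405 ± 0.615 FPKM (SD, n = 2) in ATO. The lowest sarcoma, ATO 2, was the one with 14.7% mitochondrial counts. The log2 fold change, ATO over PBS, was -1.55 ± 0.53 (SE, 95% interval -2.94 to -0.16, adjusted p 0.570 in edgeR). It did not pass the threshold of 0.05 after adjustment over all genes, and the interval is not adjusted. With any 1 sarcoma left out the value stayed between -1.92 and -1.26. In PBS 1 and PBS 2, where Sox9 was highest, the level of its classical matrix target Acan was 0.10 and 0.07 FPKM.

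Sox6 (ENSMUSG00000051910; chromosome 7, 115470872 to 116038796, minus strand) differed in the other direction. It had 0 counts in PBS 1, 46 in PBS 2, 2056 in ATO 1 and 258 in ATO 2, or 0, 0.17, 7.64 and 1.14 FPKM. Both ATO sarcomas lay above both PBS sarcomas, yet ATO 1 was 6.70 times as high as ATO 2 by FPKM. The mean was 66.8 ± 65.2 CPM (SD, n = 2) in ATO and 1.16 ± 1.64 CPM (SD, n = 2) in PBS. The log2 fold change was 5.84 ± 2.06 (SE, 95% interval 0.43 to 11.24, adjusted p 0.570 in edgeR). Of the chondrocyte genes it alone passed when DESeq2 was used (adjusted p 0.0108) or when edgeR was run with low counts kept in (adjusted p 0.0179), with adjusted p up to 0.864 over the alternatives. Without ATO 1 the log2 value was 4.14, and without PBS 2 it was 13.11, a value set by the 0 counts of PBS 1 and thus no measure of size.

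Sox5 (ENSMUSG00000041540; chromosome 6, 143828425 to 144781977, minus strand) did not follow its partner. It had 77 counts in PBS 1, 74 in PBS 2, 41 in ATO 1 and 123 in ATO 2, or 0.31, 0.29, 0.16 and 0.56 FPKM. ATO 1, the highest sarcoma for Sox6, was therefore the lowest for Sox5, and the groups overlapped. The log2 fold change was 0.63 ± 0.89 (SE, 95% interval -1.70 to 2.97, adjusted p 0.867 in edgeR), and it was -0.78 without ATO 2 and 1.32 without ATO 1. The annotation places an antisense gene, Sox5os1, over 9.25% of the exonic bases of Sox5. Whether the counting used strand, and how it treated reads that fall on both genes, is not stated. The effect of this overlap on the Sox5 counts was not tested.

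Because Sox5 and Sox6 are paralogs with unlike values, their transcripts were compared to see whether reads could have been exchanged. The stretch of 210 coding bases in which they are most alike is shown, together with the matching stretch of Sox9, since SOX proteins share a DNA-binding HMG box. The sequences are from the GENCODE M21 transcripts (GRCm38), positions are counted from the first base of the longest coding sequence of each gene, and capitals mark bases that differ from Sox6.
Sox6, bases 1846 to 2055: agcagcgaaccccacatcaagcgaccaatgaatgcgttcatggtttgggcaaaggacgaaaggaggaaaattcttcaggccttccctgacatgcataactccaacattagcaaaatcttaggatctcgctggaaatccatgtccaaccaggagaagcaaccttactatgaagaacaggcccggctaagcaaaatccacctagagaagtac
Sox5, bases 1651 to 1860: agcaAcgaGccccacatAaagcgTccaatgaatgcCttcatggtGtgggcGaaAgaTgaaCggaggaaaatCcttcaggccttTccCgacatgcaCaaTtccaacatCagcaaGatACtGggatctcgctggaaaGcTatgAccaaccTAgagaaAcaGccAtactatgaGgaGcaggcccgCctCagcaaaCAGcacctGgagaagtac
Sox9, bases 298 to 507: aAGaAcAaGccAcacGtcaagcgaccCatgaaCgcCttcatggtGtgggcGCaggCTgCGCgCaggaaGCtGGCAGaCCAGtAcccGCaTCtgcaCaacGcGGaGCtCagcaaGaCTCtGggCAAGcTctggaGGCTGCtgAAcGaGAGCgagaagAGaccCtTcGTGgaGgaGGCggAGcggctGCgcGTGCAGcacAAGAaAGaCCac
In this stretch Sox5 differs from Sox6 at 36 of 210 bases, and Sox9 at 94. Over the whole coding sequences, the longest run of identical bases was 17 between Sox5 and Sox6. It was 44 between Sox9 and its closest relative in this comparison, Sox10. Of the 14907 distinct words of 50 bases counted for Sox6, 0 occurred on either strand in a transcript of another gene. The same held for Sox9 and its 4086 words. A word shared between chondrocyte genes was counted only under the earlier gene, with Sox5 before Sox6. Sox5 shared the most, 1306 of 14537 words (8.98%), most often with Sox5os1 (its antisense gene), Epb41l1 and Erlec1. Genes sharing fewer words were not listed, so whether Sox5 and Sox6 share words outside their coding sequences was not settled. Of the other 7 chondrocyte genes Hapln1 alone shared any, with 0.308% of its words.

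Comp (ENSMUSG00000031849; chromosome 8, 70373558 to 70382066, plus strand), the pentameric thrombospondin of cartilage and tendon, was the most abundant of the 10 in both ATO sarcomas. It had 9 counts in PBS 1, 133 in PBS 2, 1193 in ATO 1 and 221 in ATO 2, or 0.17, 2.49, 22.17 and 4.88 FPKM. The groups did not overlap, but PBS 2 and ATO 2 were closer to each other than ATO 2 was to ATO 1. The mean was 41.6 ± 33.8 CPM (SD, n = 2) in ATO and 3.59 ± 4.40 CPM (SD, n = 2) in PBS. The log2 fold change was 3.53 ± 1.42 (SE, 95% interval -0.20 to 7.26, adjusted p 0.592 in edgeR), and it was 2.29 without ATO 1 and 6.44 without PBS 2. From lowest to highest, the 4 sarcomas came in the order PBS 1, PBS 2, ATO 2 and ATO 1 for Comp as for Sox6.

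Aggrecan and its link protein were highest in a single sarcoma. Acan (ENSMUSG00000030607; chromosome 7, 79053483 to 79115099, plus strand) had 13 counts in PBS 1, 9 in PBS 2, 145 in ATO 1 and 3 in ATO 2. Its FPKM of 1.07 in ATO 1 was 10.7 times the next highest, and ATO 2 was the lowest of the 4. Hapln1 (ENSMUSG00000021613; chromosome 13, 89539796 to 89611652, plus strand) had 10 counts in PBS 1, 107 in ATO 1 and 0 in both PBS 2 and ATO 2, or 0.10 FPKM in PBS 1 and 1.00 in ATO 1. The log2 fold change was 2.84 ± 1.61 for Acan (SE, 95% interval -1.39 to 7.07, adjusted p 0.669 in edgeR). For Hapln1 it was 3.47 ± 2.52 (SE, 95% interval -3.13 to 10.06, adjusted p 0.731 in edgeR). Both turned negative without ATO 1, to -1.23 for Acan and -5.21 for Hapln1, the latter set by the 0 counts of ATO 2. The positive group values of these genes therefore rest on ATO 1.

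The matrilins, which link collagen fibrils to proteoglycans, were low or undetected. Matn3 (ENSMUSG00000020583; chromosome 12, 8947929 to 8972028, plus strand) had 55 counts in PBS 1, 0 in PBS 2, 20 in ATO 1 and 1 in ATO 2, or 1.04, 0, 0.37 and 0.02 FPKM. Each group thus held a sarcoma with Matn3 reads and a sarcoma nearly without. Its log2 fold change was -1.24 ± 2.12 (SE, 95% interval -6.81 to 4.32, adjusted p 0.893 in edgeR), and without PBS 1 it was 6.37, set by the 0 counts of PBS 2. Without ATO 1 it was -4.08. Matn1 (ENSMUSG00000040533; chromosome 4, 130944385 to 130955475, plus strand) had 0, 3, 2 and 0 counts in PBS 1, PBS 2, ATO 1 and ATO 2, at or under the limit in all 4.

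Cnmd, Ihh and Matn1 did not pass the filter on low counts and were not tested. Cnmd (ENSMUSG00000022025; chromosome 14, 79637690 to 79662170, minus strand) had 14 counts in ATO 1 and 0 in the other 3 sarcomas. Ihh (ENSMUSG00000006538; chromosome 1, 74945315 to 74951672, minus strand) had 5 counts in PBS 1, 1 in PBS 2, 9 in ATO 1 and 2 in ATO 2, at most 0.16 FPKM. Differences in Ihh were not detectable at this depth. Every sarcoma but ATO 1 had 3 chondrocyte genes at 0 counts, and ATO 1 had 0 such genes.

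By edgeR, 0 of the 7 chondrocyte genes tested passed an adjusted p of 0.05, as did 0% of all genes tested. At an unadjusted p under 0.05, 2 of the 7 were counted, against 8.51% of all genes. These were Sox6, higher in ATO (background 5.44%), and Sox9, lower in ATO (background 3.07%). In DESeq2, 1 of the 7 passed against 4.15% of all genes, and in edgeR without a filter 1 of the 10 passed against 1.75%. By CPM both ATO sarcomas lay above both PBS sarcomas in 2 of the 7 (Sox6 and Comp, background 19.7%) and below in 1 (Sox9, background 20.2%). By FPKM the same 3 genes stood apart, with backgrounds of 12.8% and 29.6%. The fitted value was above 0 in 5 of the 7, against 49.2% of all genes. The median of the log2 fold changes was 2.84 for the 7 genes and -0.016 for all genes tested. These 7 passed a filter that asks for reads in at least as many sarcomas as a group holds, so their counts and median describe them alone. The median was -1.23 without ATO 1. Of the 7 genes tested, 4 had their highest FPKM in ATO 1 (Acan, Comp, Sox6 and Hapln1), against 22.8% of all genes tested. Cnmd and Ihh, which were not tested, were highest in ATO 1 as well.

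**Figure D2:**
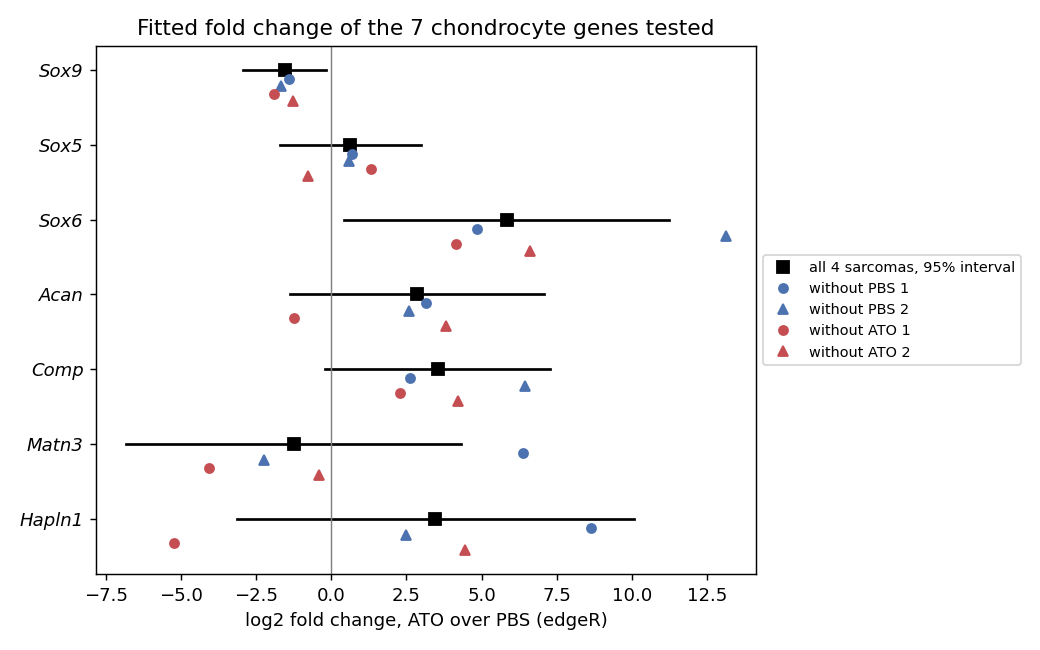
Log2 fold change, ATO over PBS, of the 7 chondrocyte genes tested in edgeR (x axis; black squares with unadjusted 95% intervals for all 4 sarcomas), with the values after leaving out each sarcoma (blue for a PBS and red for an ATO sarcoma; circles for the first, triangles for the second). Sox9 stayed below 0 and Sox6 and Comp above 0 in every case, whereas Acan and Hapln1 crossed 0 without ATO 1.

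The other genes of the cartilage pathway were examined by list, and in edgeR 0 genes of any list passed the threshold in either direction. Among 10 cartilage collagens tested of 11, 4 had a fitted value above 0 and 6 below (median log2 fold change -0.68), 1 had an unadjusted p under 0.05, and DESeq2 called 2. Over all genes tested, for this and the following lists, 49.2% were fitted above 0, 8.51% had an unadjusted p under 0.05 and DESeq2 called 4.15%, and nothing particular to a list is read from its counts. The 3 type VI collagen genes, which form the microfibrils around cells, had the highest FPKM of the list and log2 fold changes of -1.78 for Col6a1, -1.76 for Col6a2 and -2.31 for Col6a3 (edgeR adjusted p 0.597, 0.597 and 0.585). The fibrillar collagens of the list did not share an order. Col11a1 had 54.97, 1.07, 19.25 and 1.51 FPKM in PBS 1, PBS 2, ATO 1 and ATO 2 (log2 fold change -1.29), and Col27a1 had 35.14, 1.68, 3.91 and 3.56 (log2 fold change -2.03), both highest in PBS 1. Col2a1 and Col11a2 instead had their highest value in ATO 1. Col11a2 had 0.57, 2.38, 100.87 and 0.82 FPKM in PBS 1, PBS 2, ATO 1 and ATO 2. DESeq2 called both, with adjusted p 0.0117 for Col2a1 and 0.0209 for Col11a2 (up to 0.948 and 0.940 over the alternatives). For Col2a1 and Col11a2, as for Acan and Hapln1, ATO 1 was on top and ATO 2 lay beside the PBS sarcomas.

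Among 22 other cartilage matrix and secreted genes, 15 were tested, of which 10 had a fitted value above 0 and 5 below (median log2 fold change 0.56). By edgeR 3 had an unadjusted p under 0.05, and DESeq2 called those 3, against 8.51% and 4.15% of all genes. Fmod, which encodes the collagen-binding fibromodulin, had 1.47 and 4.81 FPKM in PBS against 102.87 and 18.55 in ATO. Its log2 fold change was 4.45 ± 1.08 (SE, adjusted p 0.570 in edgeR). Cytl1, a secreted cartilage factor, was listed at 0 counts in both PBS sarcomas and had 334 counts in ATO 1 and 10 in ATO 2. The matrilin Matn4 had 0.06 FPKM in both PBS sarcomas, 1.56 in ATO 1 and 0.23 in ATO 2. Other abundant genes went the other way, such as Matn2, with 44.74, 4.99, 1.95 and 4.79 FPKM in PBS 1, PBS 2, ATO 1 and ATO 2, and the large proteoglycan Vcan, with 45.87, 6.29, 9.55 and 3.06. Prelp, a proteoglycan of connective tissue, had 1.44 and 15.02 FPKM in PBS and 18.23 and 51.45 in ATO. The highest value of Matn2 and Vcan belonged to PBS 1, the sarcoma that was also highest for Matn3.

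Of 21 chondrogenic transcription factors and signals, 16 were tested, with 10 fitted above 0 and 6 below (median log2 fold change 0.23), and DESeq2 called 0. Sox8, a relative of Sox9, had 0.06 and 0.05 FPKM in PBS and 1.15 and 0.19 in ATO. Its log2 fold change was 3.75 ± 1.12 (SE, adjusted p 0.570 in edgeR), and Sox8 was the 1 gene of the list with an unadjusted p under 0.05. Sox13, the third member of the Sox5 and Sox6 subgroup, had 3.56, 19.82, 2.40 and 3.95 FPKM, highest in PBS 2. Sox10, used in nerve sheath cells, stayed at or below 0.97 FPKM. The limb mesenchyme factor Prrx1, the most abundant gene of the list, had 57.44, 12.65, 23.29 and 8.42 FPKM with overlapping groups. The 4 genes named by abundance (Prrx1, Mef2c, Wwp2 and Sox13) overlapped between groups.

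In the growth plate, Ihh induces parathyroid hormone-like hormone (Pthlh), which holds chondrocytes back from maturing. Of 21 genes of this pathway 20 were tested, with 7 fitted above 0 and 13 below (median log2 fold change -0.70). Pthlh had 5.34 and 14.85 FPKM in PBS against 0.07 and 0.45 in ATO. Both PBS sarcomas lay above both ATO sarcomas, and the log2 fold change was -4.93 ± 1.27 (SE, adjusted p 0.570 in edgeR). It was the 1 gene of the list with an unadjusted p under 0.05 and the 1 that DESeq2 called (adjusted p 0.000973, up to 0.864 over the alternatives). Its receptor Pth1r had 23.33, 3.90, 21.59 and 11.72 FPKM, without separation of the groups. The hedgehog transducer Smo had 15.89, 10.30, 9.69 and 4.26 FPKM, the co-receptor Gas1 151.22, 9.94, 38.10 and 21.47, and the inhibitor Sufu 10.18, 5.33, 4.23 and 3.67. The edgeR adjusted p of these 4 genes lay between 0.709 and 0.893. Shh had 0 counts in every sarcoma. Dhh had 0.10, 5.45, 0.21 and 0.25 FPKM, more than Ihh in each.

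The 12 genes that break down cartilage matrix or restrain this were all tested, with 5 fitted above 0 and 7 below (median log2 fold change -0.32). Mmp13, the collagenase of hypertrophic chondrocytes and osteoblasts, had 29.11 and 11.68 FPKM in PBS against 1045.59 and 63.25 in ATO. Its log2 fold change was 4.91 ± 1.52 (SE, adjusted p 0.570 in edgeR, DESeq2 adjusted p 0.00180, up to 0.864 over the alternatives). The aggrecanase Adamts4 went the other way, with 22.59 and 56.73 FPKM in PBS and 3.21 and 8.76 in ATO (log2 fold change -2.38 ± 0.82, SE, adjusted p 0.570 in edgeR). The aggrecanase Adamts5 had 4.11 and 3.89 FPKM in PBS and 5.35 and 7.89 in ATO. Both were thus separated between the groups, in opposite directions. Mmp9, Mmp14 and Mmp3 had log2 fold changes of 0.74, -0.86 and 0.02 with edgeR adjusted p between 0.754 and 0.997.

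Genes for sulfate supply and glycosaminoglycan assembly, on which aggrecan depends, were present in every sarcoma. Of 16 tested, 4 were fitted above 0 and 12 below (median log2 fold change -0.56). The sulfate donor enzyme Papss1 had 38.54, 11.04, 11.43 and 11.63 FPKM, highest in PBS 1, and Ugdh, Chsy1 and Chpf had log2 fold changes of -0.67, -0.40 and -0.44. The hyaluronan synthase Has2 had 13.15 and 2.68 FPKM in PBS against 0.39 and 0.74 in ATO (log2 fold change -3.49 ± 1.02, SE, adjusted p 0.570 in edgeR). DESeq2 called Has2 alone in this list (adjusted p 0.0166, up to 0.864 over the alternatives). Among 10 tendon and fibrous genes 9 were tested, with 6 fitted above 0 and 3 below (median log2 fold change 0.93), 0 had an unadjusted p under 0.05 and DESeq2 called 0. Thbs4, the thrombospondin closest in use to Comp in tendon, had 23.92 and 15.51 FPKM in PBS and 27.58 and 42.50 in ATO (log2 fold change 1.14 ± 0.51, SE). Tnmd, the tendon relative of Cnmd, had 0.76 and 0.82 FPKM in PBS against 1.71 and 1.84 in ATO. For Thbs1, Thbs2 and Dcn the log2 fold changes were 0.94, -0.41 and 1.19, and the edgeR adjusted p of these 5 genes lay between 0.604 and 0.916. Col2a1, Cytl1, Matn4, Sox8, Sox10, Pthlh, Shh, Dhh, Adamts4, Adamts5, Has2, Tnmd, Col11a1 and Col27a1 were named after their values were seen.

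**Figure D3:**
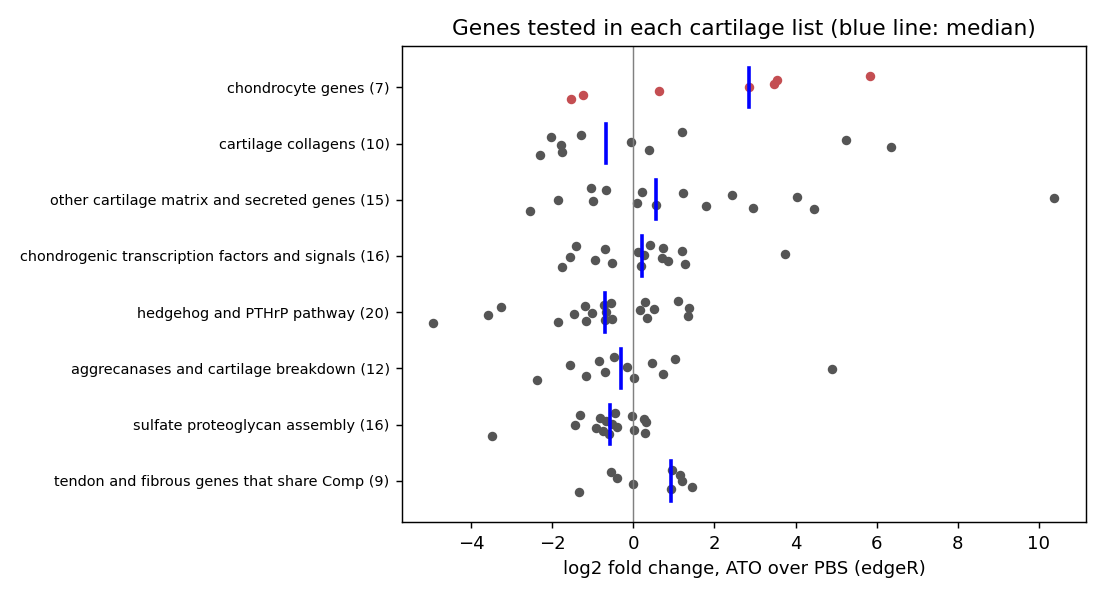
Log2 fold change, ATO over PBS (x axis, edgeR), of each gene tested in the 10 chondrocyte genes (red) and in 7 further cartilage lists (grey), with the median of each list as a blue line and the number tested in parentheses. The chondrocyte genes had a median of 2.84, and the medians of the further lists lay between -0.70 and 0.93.

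Markers of other cell types differed between the sarcomas too, and in bulk tissue fewer cells of a type cannot be told apart from less RNA per cell. The 8 skeletal muscle markers were all detected in every sarcoma, and their FPKM summed to 7.55 in PBS 1, 124 in PBS 2, 14373 in ATO 1 and 975 in ATO 2. This is the order found for Sox6 and Comp. By edgeR 0 of the 8 passed after adjustment and 7 had an unadjusted p under 0.05, whereas DESeq2 called all 8. Acta1, Tnnt3 and Myh4, the most abundant of them, had 3898, 2979 and 3029 FPKM in ATO 1. The 10 osteoblast markers summed to 568, 110, 2434 and 874 FPKM in PBS 1, PBS 2, ATO 1 and ATO 2, and all 10 were highest in ATO 1. Of the 8 osteoblast markers tested, edgeR called 0 after adjustment and counted 2 at an unadjusted p under 0.05, and DESeq2 called 4. Ibsp, bone sialoprotein, had 0.30, 0.35, 290.95 and 0.29 FPKM. Bglap2, an osteocalcin gene, was listed at 0 in both PBS sarcomas and had 69.08 and 0.28 FPKM in ATO. Spp1 had 563.95, 105.41, 1846.72 and 869.65, and so gave nearly all of the osteoblast sum in PBS 1, PBS 2 and ATO 2. Acan, Hapln1, Cnmd and Col2a1 thus had their highest value in the sarcoma with the highest bone and muscle markers, and the part of these cell types in the values was not tested.

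Other lists had other orders. The 7 adipocyte markers (Fabp4, Cfd and Cidec the most abundant) summed to 12.8, 67.4, 365 and 1857 FPKM, highest in ATO 2, where Sox5 was highest as well. By edgeR 0 of the 7 passed after adjustment and all 7 had an unadjusted p under 0.05, whereas DESeq2 called all 7. Whether the growth protocol in the labels bears on these values was not tested. The 7 endothelial markers, led by Cdh5, Cldn5 and Pecam1, were highest in PBS 2 (1409 FPKM against 116 to 198 in the other 3). The 7 leukocyte markers, led by Cd68, Csf1r and Adgre1, ranged from 178 to 388 FPKM. The 7 Schwann and glial markers, led by S100b, Mbp and Erbb3, summed to at most 36.4 FPKM, and the 6 epithelial markers, led by Krt18, Krt8 and Epcam, to at most 20.2, both in ATO 2. The 6 neural markers (Nes, Tubb3 and Stmn2 the most abundant) summed to 23.2 and 53.4 FPKM in PBS and 9.10 and 9.31 in ATO. The sum had the direction of Sox9. Nes and Tubb3 lay below both PBS sarcomas in both ATO sarcomas, as did 29.6% of all genes tested by FPKM. Stmn2 overlapped between the groups, at 0.29, 7.94, 0.18 and 0.75 FPKM in PBS 1, PBS 2, ATO 1 and ATO 2. Gfap, at 0, 0.03, 0.85 and 0.03 FPKM in the same order, did not have the direction of Sox9. Dcx and Olig2 stayed at or below 0.09 FPKM. The 5 smooth muscle markers, led by Des, Tagln and Actg2, summed to 68.3, 43.1, 491 and 110 FPKM, and Des, which skeletal muscle also uses, gave 485.67 FPKM of the sum in ATO 1. The defining muscle, endothelial, leukocyte and smooth muscle markers were at 0 counts in 0 sarcomas, whereas PBS 1 had 3 osteoblast, 3 adipocyte, 3 epithelial, 3 neural and 2 Schwann markers at 0. The part of these cell types in Sox9, Sox6 and Comp was not tested.

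**Figure D4:**
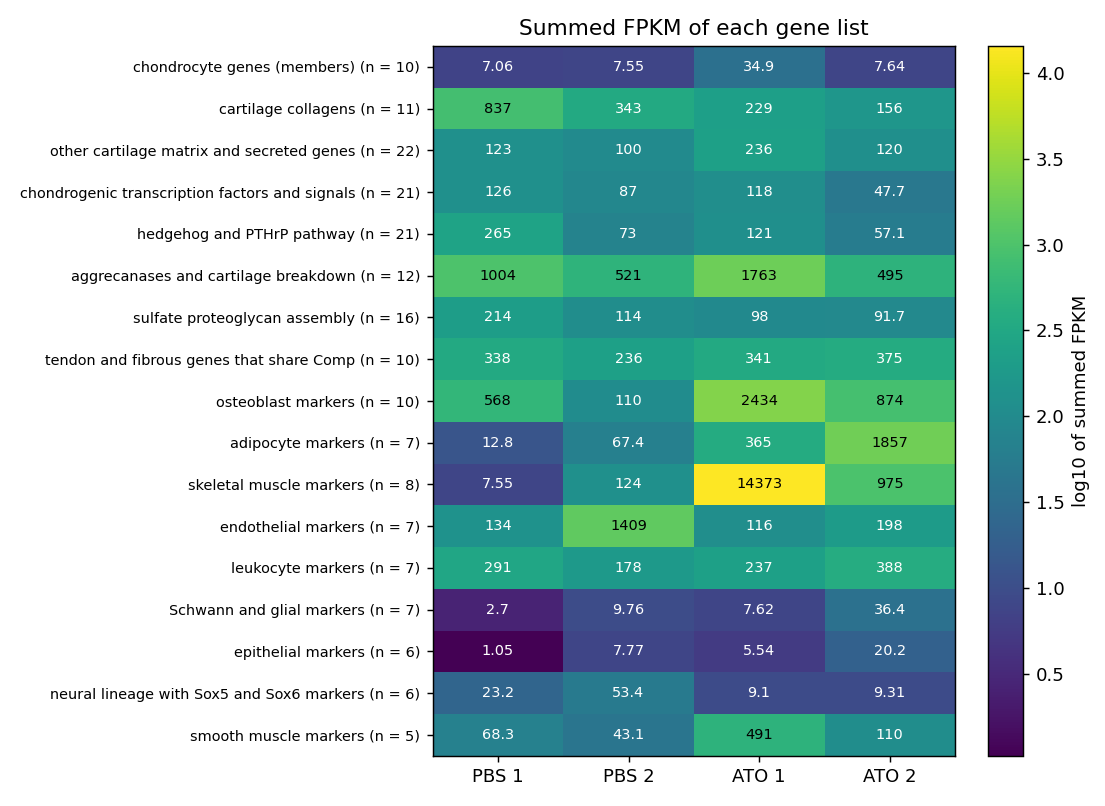
Summed FPKM of the 10 chondrocyte genes, 7 further cartilage lists and 9 lists of cell type markers (rows, with the number of genes) in the 4 sarcomas (columns); colour is the log10 of the sum, printed in each cell. ATO 1 had the highest sum of the chondrocyte genes (34.9) and of the skeletal muscle (14373) and osteoblast markers (2434).

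Over the 17188 genes tested, the profiles nearest to Acan and Sox9 were sought by the root mean square distance of centred log2(CPM + 1) over the 4 sarcomas, as a description without a test. Nearest to Acan was Ppm1e, at a distance of 0.073, with 0.61, 0.46, 3.21 and 0.30 FPKM in PBS 1, PBS 2, ATO 1 and ATO 2. Pidd1, Tfdp2, Mx1 and Chst13 followed at 0.146 to 0.180. Acan itself had a CPM of 0.684, 0.453, 7.97 and 0.240 in the same order of sarcomas. At this low level the added 1 weighs on its distances, and fold differences of the named genes need not match those of Acan. Nearest to Sox9 were Xkr5, Armcx2, Farp1, Plod2 and Nxn at 0.057 to 0.103. Within a wider fixed distance lay 171 genes for Acan and 1679 for Sox9, so the named genes are a few of many. Armcx2, for example, had 15.99, 16.28, 6.27 and 3.56 FPKM.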

How the data were processed

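RNA-seq of 4 sarcomas was used, grouped by the treatment in their labels. Per the submitters' processing notes and the methods, reads were checked with FastQC 0.10.1, trimmed with cutadapt 1.9.1, aligned with HISAT2 2.0.1 and counted per gene with HTSeq. The authors deposited raw read counts and FPKM, and FPKM recomputed from count, exonic size and total count differed from the deposited FPKM by at most 0.005. The methods name GRCm38, but only 1472 of 52073 shared genes lie at the GENCODE M21 position, so positions were taken from GENCODE M21 (GRCm38) by identifier. A symbol was missing for 2639 genes.

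The groups were compared on the counts with edgeR 4.0.16, run in R 4.3.3 (filterByExpr with a minimum count of 10, TMM factors of 1.09, 1.11, 1.01 and 0.822 for PBS 1, PBS 2, ATO 1 and ATO 2, quasi-likelihood F-test, threshold 0.05). The SE is the fold change divided by the square root of F. Genes tested held at least 99.49% of the counts, and the biological coefficient of variation was 62.5%. Alternatives used DESeq2 1.42.0 and limma 3.58.1. The scripts were tested on simulated counts with known changes. The chondrocyte genes, lists and tests were chosen with earlier results of these data known. In each list the 4 most abundant genes by mean FPKM (3 for marker lists) and any past the threshold were named, in marker lists also any at 0 counts throughout (none was), and other names were added after seeing values. Impad1 was not in the symbol column and was left out. Figures were drawn with matplotlib 3.10.9.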

Additional observations from a re-analysis of the deposited data

How the results depend on the processing

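Genes past the threshold numbered 0 in edgeR, 714 in DESeq2, of which 560 were higher in ATO, and 541 with low counts kept in, of which 454 were higher in ATO, and 0 in every other alternative, each sarcoma left out included, where the lone sarcoma of a group is assumed to vary like the others. At an unadjusted p under 0.05 edgeR counted 1463. Among the chondrocyte genes 1 passed in DESeq2 and 1 without a filter, both times Sox6, with log2 fold changes of 5.88 and 5.82. DESeq2 and edgeR without a filter called 4.15% and 1.75% of all genes. They called 2 and 2 of 11 cartilage collagens, 3 and 2 of 22 other matrix genes, and 1 and 1 in each of the hedgehog (of 21), breakdown (of 12) and sulfate (of 16) lists. Among the markers they called 8 and 8 of 8 for skeletal muscle, 7 and 6 of 7 for adipocytes, 4 and 4 of 10 for osteoblasts and 1 and 1 of 5 for smooth muscle. Of these lists DESeq2 tested only 10 collagens, 15 other matrix genes, 20 hedgehog genes and 8 osteoblast markers. The cause was not tested.

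The median log2 fold change of the chondrocyte genes tested lay between -1.23 and 3.80 when each sarcoma was left out, and was 0.43 in limma on log2(FPKM + 1) and 1.08 on log2(FPKM + 0.1), where the added constant shrinks the fold changes of low genes. The median of all genes was -0.18 and -0.27 in these fits against -0.016 in edgeR, and Sox9 at -1.30 and -1.77 lay below both. A mean FPKM of at least 1 left Sox9, Sox6 and Comp among the genes tested. Leaving out each sarcoma reversed a direction in 4 genes, whose values spanned -0.78 (without ATO 2) to 1.32 for Sox5, -1.23 (without ATO 1) to 3.80 for Acan, -5.21 (without ATO 1) to 8.65 for Hapln1 and -4.08 to 6.37 (without PBS 1) for Matn3.

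The groups share replicate numbers, but nothing says that a number pairs sarcomas, and the deviations of same-numbered sarcomas had a correlation of 5.0e-05. In the fit with the replicate block, 0 genes were called (1165 at an unadjusted p under 0.05), and the log2 fold changes of Sox9, Sox6 and Comp were -1.58, 6.40 and 4.10.

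With 10 counts or fewer in several sarcomas, Matn1, Ihh and Cnmd were limited by depth.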
